A study of Mus musculus with 2 samples.

Results

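The TGF-β signalling genes were followed here across sorted microglia of the mouse spinal cord. The list held 10 names, of which Lrrc33 is an older name of Nrros, so that 9 genes of the 32285 in the count tables were described: Tgfb1, Nrros, Tgfbr1, Tgfbr2, Smad2, Smad3, Smad4, Smad7 and Ski. They were chosen by name, with earlier results of these data known. All 9 were found in both libraries, with between 659 (Smad2) and 10314 (Tgfbr1) transcripts counted over the kept cells. Microglia came from the lumbar cord of male mice, were gated as CD45loCD11bhiCX3CR1hi and were read by droplet scRNA-Seq from the 3′ end of each transcript. The question was how cells that lack 4E-BP1, a repressor of cap-dependent translation, differ from controls. There was 1 library of control mice, which the labels call WT and a supplementary legend of the study gives as Eif4ebp1 fl/fl, and 1 library of 4E-BP1–cKO mice (Eif4ebp1 fl/fl:TMEM119 CreERT2), in which Cre is driven from the Tmem119 promoter. The mice were adults 8 to 10 weeks old, and 4-OHT, which activates the Cre, was given from postnatal day 4 to postnatal day 9. The sources do not state how many mice gave each library.

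TGF-β1 is made as a latent protein that has to be released before it binds its receptors, and on microglia it is held at the cell surface by the protein that Nrros encodes. The active ligand brings together a type II and a type I receptor kinase, and these phosphorylate SMAD2 and SMAD3, which enter the nucleus with SMAD4. SMAD7 blocks the receptors, and SKI represses the SMAD complex in the nucleus. In the central nervous system this pathway is known for keeping microglia in their tissue-specific state.

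Counts are of unique molecular identifiers (UMIs), tags that let PCR copies of 1 transcript be counted once. A barcode was kept when over 300 genes were detected in it and mitochondrial transcripts made up less than 5% of its UMIs. There were 1147 control cells with 4803562 UMIs and 445 4E-BP1–cKO cells with 1734332 UMIs, at medians of 3053 and 2776 UMIs per cell, and no barcode was shared between the libraries. At least 3 of 9 microglial markers were found in 96.3% of control and 93.5% of 4E-BP1–cKO cells, while 13 and 3 barcodes carried at least 3 markers of another cell type. Eif4ebp1 itself was counted at 19.8 CPM (the gene's UMIs scaled to a common total per library or cluster) in the control library and at 29.4 CPM in the 4E-BP1–cKO library. Only part of this gene is removed by Cre and transcripts were read at the 3′ end, so that this count does not check the deletion. Free RNA was not estimated, since empty droplets were not analysed here and the libraries held no other cell type in number. Tmem119, from whose promoter Cre is driven, was at 433 CPM in the control and at 142 CPM in the 4E-BP1–cKO library. With 1 library per genotype, genotype and library cannot be told apart and no test was possible. All intervals below are exact 95% intervals, and they cover counting error only.

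Cells were grouped into 9 clusters, numbered by size, which were given no cell type names. In clusters 1, 2, 7 and 8 the median share of UMIs from ribosomal protein genes was between 1.16% and 1.32%, and in clusters 3, 4, 5, 6 and 9 it was between 4.23% and 18.4%. The first 4 are called low-RP clusters below (median under 3%). The low-RP clusters were shallower, with medians of 2187 to 2360 UMIs per cell against 4619 to 8439 in clusters 3, 5, 6 and 9, whereas cluster 4 held cells of only 763 UMIs. Clusters 1 to 7 had at least 20 cells of each library and were compared between libraries, and the highest and lowest levels given below are over these 7. The clusters were built from the same UMIs as the levels, so that levels by cluster are a description.

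In the RefSeq annotation of GRCm38.p6, the assembly that mm10 names, Tgfb1 lies on chromosome 7 from 25687002 to 25705077 and Nrros on chromosome 16 from 32142785 to 32165594. The receptor genes Tgfbr1 and Tgfbr2 lie on chromosome 4 from 47353222 to 47414926 and on chromosome 9 from 116087695 to 116175363. Smad3 lies on chromosome 9 from 63646766 to 63757994 and Ski on chromosome 4 from 155154075 to 155222535. Predicted genes overlap Tgfbr1 (Gm32435), Tgfbr2 (Gm31292), Smad3 (Gm51710) and Smad7 (Gm41776), and no source states how UMIs in such overlaps were assigned.

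RefSeq promoter sequences of GRCm38.p6 were matched for 6 of the 9 genes, Tgfb1, Nrros, Tgfbr1, Tgfbr2, Smad3 and Ski. The 250 bases before the transcription start are shown for the ligand and both receptors. Capitals mark a GC box (GGGCGG) or the core letters of a PU.1 site (GAGGAAG), the factor that sets the myeloid fate, searched on both strands.
Tgfb1, chr7:25686752-25687001, plus strand: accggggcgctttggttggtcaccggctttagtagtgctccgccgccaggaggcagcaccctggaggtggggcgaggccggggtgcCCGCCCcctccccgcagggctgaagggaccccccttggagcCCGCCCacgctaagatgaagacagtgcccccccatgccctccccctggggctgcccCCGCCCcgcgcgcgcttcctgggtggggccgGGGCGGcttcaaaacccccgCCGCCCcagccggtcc
Tgfbr1, chr4:47352972-47353221, plus strand: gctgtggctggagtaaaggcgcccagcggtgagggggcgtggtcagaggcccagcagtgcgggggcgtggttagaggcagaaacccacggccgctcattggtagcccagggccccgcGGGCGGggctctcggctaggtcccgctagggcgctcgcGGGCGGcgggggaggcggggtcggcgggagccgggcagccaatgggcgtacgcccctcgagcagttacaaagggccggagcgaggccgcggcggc
Tgfbr2, chr9:116175364-116175613, minus strand: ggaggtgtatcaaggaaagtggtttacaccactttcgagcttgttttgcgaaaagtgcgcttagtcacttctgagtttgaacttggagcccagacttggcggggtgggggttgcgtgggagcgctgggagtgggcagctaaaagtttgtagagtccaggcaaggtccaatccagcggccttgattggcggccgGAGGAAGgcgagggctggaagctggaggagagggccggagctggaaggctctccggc

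The Tgfb1 window held 5 GC boxes and the Tgfbr1 window held 2, whereas the Tgfbr2 window held none and had 1 match to the PU.1 letters. Over 32851 promoter windows of the same length, 32.7% held a GC box and 10.6% the PU.1 letters. No window of the 6 genes held the AP-1 letters TGANTCA, which 6.75% of all windows held, or the SMAD palindrome GTCTAGAC, which 0.167% held. A second annotated start of Tgfbr1, at chr4:47385966-47386215, held 1 match to the PU.1 letters and no GC box. These are matches of letters and not measured binding.

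The ligand gene Tgfb1 was at 360 CPM in the control library (interval 343 to 377) and at 384 CPM in the 4E-BP1–cKO library (355 to 414). It was detected in 53.5% of control and 51.5% of 4E-BP1–cKO cells. The ratio of the libraries was 1.07 (0.974 to 1.17), an interval that includes 1. Over clusters 1 to 7 the level of Tgfb1 ranged over 2.32-fold in control and 1.90-fold in 4E-BP1–cKO cells. In control the median range of the 4887 genes with at least 200 UMIs was 2.64-fold, so that Tgfb1 lay below it. In both libraries Tgfb1 was highest in cluster 2, at 528 CPM in control and 510 CPM in 4E-BP1–cKO cells. Of clusters 1 to 7 it was lowest in cluster 1, at 227 and 268 CPM. In the small clusters 8 and 9 of the 4E-BP1–cKO library it was at 243 and 261 CPM, on 8 and 24 UMIs. Cluster 2 is a low-RP cluster whose leading genes include Raver2 and Il10, and cluster 1 is a low-RP cluster led by the non-coding transcript Gm35188. These 2 clusters had medians of 2187 (cluster 1) and 2295 UMIs per cell (cluster 2), and ribosomal protein shares of 1.16% and 1.22%. The part of depth and ribosomal protein share in the Tgfb1 levels was not tested. Cluster 5 was also low in the control library, at 248 CPM (215 to 286), and its interval overlapped that of cluster 1 (193 to 266). In the remaining control clusters, 3, 4, 6 and 7, Tgfb1 was between 380 and 419 CPM with overlapping intervals. In the 4E-BP1–cKO library clusters 3, 4 and 6 were between 398 and 425 CPM, while cluster 7, with 27 cells, was at 287 CPM (180 to 435). When the cells were clustered from a table without the 9 genes, the high end remained, with 535 and 518 CPM in the cluster whose cells came mostly (96.6%) from cluster 2. The low end of the control library remained in a cluster with 98.7% of its cells from cluster 1, at 218 CPM, but 4E-BP1–cKO cells were at 305 CPM there. Their lowest level, 210 CPM on 17 UMIs, lay in another cluster with 57.3% of its cells from cluster 1, where control cells were at 259 CPM. In that clustering the low ends of the libraries thus lay in different clusters.

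Nrros, whose product tethers latent TGF-β1 on microglia, was at 321 CPM in the control library (305 to 337) and at 364 CPM in the 4E-BP1–cKO library (337 to 394). The ratio was 1.14 (1.03 to 1.25), but the clusters did not share it. In cluster 1 the 4E-BP1–cKO cells were at 600 CPM and the control cells at 306 CPM, a ratio of 1.96 (1.52 to 2.52). In cluster 2 the levels were 553 and 411 CPM, and in clusters 5, 6 and 7 the 4E-BP1–cKO level was below that of the control. The cluster 1 value came from 94 UMIs in 84 4E-BP1–cKO cells, of which 42 had a UMI, against 116 of 267 control cells. Cluster 6 had the lowest Nrros level of clusters 1 to 7 in both libraries, at 258 and 213 CPM. The small cluster 9, with 26 control and 17 4E-BP1–cKO cells, was lower still, at 79.9 and 141 CPM. Tgfb1 and Nrros were both detected in 32.3% of control and 31.7% of 4E-BP1–cKO cells.

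Tgfbr1, the type I receptor, was detected in more cells than any other of the 9 genes, in 87.7% of control and 84.7% of 4E-BP1–cKO cells. Its level was 1577 CPM in the control (1541 to 1612) and 1580 CPM in the 4E-BP1–cKO library (1522 to 1641). The ratio of 1.002 (0.959 to 1.05) was the closest to 1 among the 9 genes. Between clusters the level ranged over 1.996-fold in control and 2.87-fold in 4E-BP1–cKO cells. It was high in clusters 1 and 5, at 2142 and 2057 CPM in the control library, whose intervals overlapped, and at 2471 and 2509 CPM in the 4E-BP1–cKO library. Cluster 7 was the lowest of clusters 1 to 7 in both libraries, at 1073 and 875 CPM, with cluster 3 next at 1161 and 1214 CPM. The small cluster 9 was lower, at 852 and 608 CPM. Clusters 2, 4 and 6 lay between, at 1729, 1687 and 1352 CPM in control and 1995, 1604 and 1278 CPM in 4E-BP1–cKO cells. Clusters 1 and 5 differ in ribosomal protein share and depth, and clusters 1 and 7 resemble each other in both. The part of these measures in the Tgfbr1 levels was not tested. Within clusters 1, 2 and 5 the 4E-BP1–cKO level was the higher, by ratios of 1.15 (1.03 to 1.29), 1.15 (1.03 to 1.29) and 1.22 (1.10 to 1.35). The cluster 3, 4, 6 and 7 ratios had intervals that included 1, and clusters 1, 2 and 5 made up 18.9%, 14.8% and 8.09% of 4E-BP1–cKO cells against 23.3%, 17.3% and 10.3% of control cells.

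Tgfbr2, the type II receptor that binds the ligand first, was at 594 CPM in the control library (573 to 616) and at 584 CPM in the 4E-BP1–cKO library (548 to 621). The ratio was 0.982 (0.913 to 1.06). Its order over clusters 1 to 7 was the same in both libraries, with 1 at the top, then 5, 2, 4, 3, 7 and 6. The control levels went from 802 CPM in cluster 1 to 347 CPM in cluster 6, and the 4E-BP1–cKO levels from 881 to 379 CPM. Neighbours in this order mostly had overlapping intervals, but in the control library cluster 6 (311 to 387) lay below the interval of cluster 7 (450 to 608). Tgfbr1 and Tgfbr2 varied together over clusters 1 to 7, with a Pearson correlation of 0.70 in control and 0.87 in 4E-BP1–cKO cells. Between Tgfb1 and Tgfbr1 it was -0.58 in control and -0.08 in 4E-BP1–cKO cells. For Smad2 it was 0.80 in control and 0.71 in 4E-BP1–cKO cells with Tgfbr1, and 0.65 and 0.71 with Tgfbr2. Correlations over all pairs of genes were not counted. These are descriptions over 7 points, which share a library, its depth and the clustering. Both receptors were detected in 65.5% of control cells (62.6 to 68.2) and 62.0% of 4E-BP1–cKO cells (57.3 to 66.6). Neither receptor was found in 4.97% of control cells (3.79 to 6.39) and 8.54% of 4E-BP1–cKO cells (6.11 to 11.5), with intervals that overlapped. These shares depend on depth. When cells were drawn down to the same number of UMIs, without the shallowest cells, they were 21.2% (18.7 to 23.8) and 24.8% (20.5 to 29.5).

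**Figure D1:**
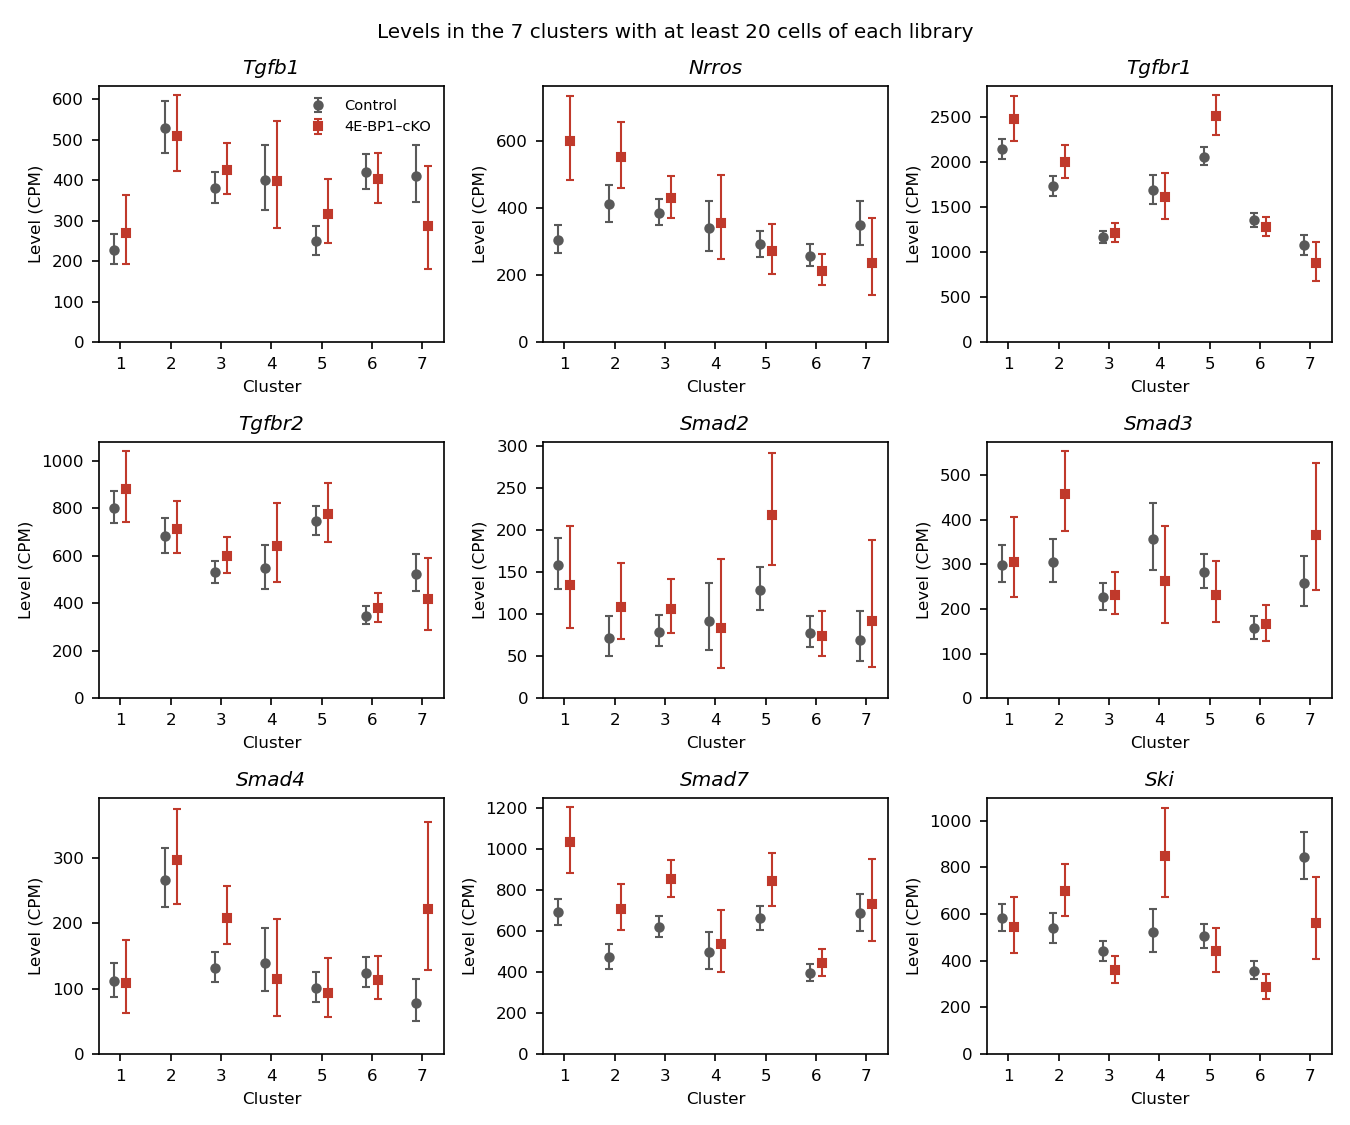
Levels of the 9 genes in CPM (vertical axis, from 0) in clusters 1 to 7 (horizontal axis), for the control library (grey circles) and the 4E-BP1–cKO library (red squares), with bars for exact 95% Poisson intervals. Tgfb1 is highest in cluster 2 (528 and 510 CPM), where Smad4 is also highest, Tgfbr1 and Tgfbr2 are high in clusters 1 and 5, and Smad7 is higher in the 4E-BP1–cKO library in each of the 7 clusters.

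Of the receptor-regulated SMADs, Smad2 was detected in the fewest cells of all 9 genes. It was counted in 26.9% of control and 27.6% of 4E-BP1–cKO cells, at levels of 97.6 CPM (89.0 to 107) and 110 CPM (94.5 to 126). Its library ratio was 1.12 (0.943 to 1.33). Over the clusters Smad2 was highest in cluster 1 of the control library, at 158 CPM (130 to 190), and in cluster 5 of the 4E-BP1–cKO library, at 217 CPM (158 to 292). Those same clusters held the high levels of Tgfbr1. The cluster 5 level of the 4E-BP1–cKO library was 1.69 times (1.16 to 2.43) that of the control, on 44 and 102 UMIs.

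Smad3, the other receptor-regulated SMAD, was at 250 CPM in the control library (236 to 265) and at 254 CPM in the 4E-BP1–cKO library (231 to 279). The ratio was 1.02 (0.910 to 1.14). Cluster 6 had the lowest Smad3 level of clusters 1 to 7 in both libraries, at 157 and 166 CPM, and cluster 9 was lower, at 126 and 65.2 CPM. The highest cluster differed, being cluster 4 in control at 356 CPM (287 to 438) and cluster 2 in 4E-BP1–cKO cells at 457 CPM (374 to 554). Cluster 2 was the only 1 of the 7 in which the interval of the Smad3 library ratio did not include 1, at 1.497 (1.16 to 1.93).

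Smad4, the partner shared by the SMAD complexes, was at 132 CPM in control (122 to 143) and at 164 CPM in 4E-BP1–cKO cells (146 to 185), the largest library ratio of the 9 genes at 1.25 (1.08 to 1.43). It did not run through all clusters, since 3 of the 7 had the higher level in the 4E-BP1–cKO library. The levels were furthest apart in cluster 3, at 209 against 132 CPM, with a ratio of 1.59 (1.198 to 2.10), and in cluster 7, at 222 against 77.9 CPM. The cluster 7 ratio of 2.85 (1.45 to 5.45) rested on 17 and 26 UMIs. Cluster 2 had the highest Smad4 level in both libraries, at 267 CPM (224 to 315) in control and 296 CPM (230 to 375) in 4E-BP1–cKO cells. In the control library no other cluster had an interval that reached this one. Cluster 2 was therefore the top cluster for both the ligand gene and the shared SMAD gene.

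Smad7, the inhibitory SMAD that is itself induced by TGF-β, was at 574 CPM in control (552 to 595) and at 694 CPM in 4E-BP1–cKO cells (656 to 735). The ratio was 1.21 (1.13 to 1.30), and Smad7 was the only gene of the 9 with a higher 4E-BP1–cKO level in 7 of 7 clusters. In cluster 1 the levels were 1035 and 692 CPM, in cluster 2 they were 710 and 473 CPM, and in cluster 3 they were 852 and 621 CPM. The intervals of the ratio were above 1 in clusters 1, 2, 3 and 5. Skil, a pathway gene described below, was also higher in 7 of 7 clusters, with a library ratio of 1.22 (1.15 to 1.29). The share of all genes with this was not counted, and clusters of the same libraries are not replicates. When each cell was thinned to 872 UMIs, so that every cell had the same weight, the log2 ratio was 0.00 in place of 0.28. The share of thinned cells with a Smad7 UMI was 35.1% in control and 34.7% in 4E-BP1–cKO cells. The difference in summed UMIs was thus not seen in the thinned cells. The 115 control cells with most Smad7 UMIs, 10% of the library, held 44.4% of them, and the 44 such 4E-BP1–cKO cells held 43.3%, beside 29.0% and 28.7% of all UMIs in the 10% deepest cells. Cluster 6 was the lowest of clusters 1 to 7 in both libraries, at 395 and 442 CPM, and the small cluster 9 was lower, at 213 and 304 CPM. The small cluster 8 was above cluster 1 in control, at 923 CPM (781 to 1085), but not in 4E-BP1–cKO cells, at 699 CPM.

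Ski, the nuclear repressor of SMAD complexes, was the gene whose ratio lay furthest below 1. It was at 500 CPM in control (480 to 521) and at 449 CPM in 4E-BP1–cKO cells (418 to 481), with a ratio of 0.897 (0.826 to 0.973). Detection went the same way, with 69.3% of control cells (66.6 to 72.0) and 61.8% of 4E-BP1–cKO cells (57.1 to 66.3). After thinning the shares were 34.2% and 28.5%. The log2 ratio was -0.16 over all kept cells, and the mean of the log2 ratios over clusters 1 to 7 was -0.06. The low-RP clusters, where Ski was the higher in both libraries, held 55.7% of control and 43.8% of 4E-BP1–cKO cells. The part of this mix in the library ratio of Ski was not tested. Clusters did not share the direction, since 4E-BP1–cKO cells were lower in cluster 7, at 561 against 845 CPM, and in clusters 3 and 6, but higher in cluster 4, at 849 against 523 CPM, and in cluster 2, at 697 against 538 CPM. Cluster 4, the shallow cluster, held 4 control barcodes with at least 3 endothelial markers, 1 barcode of each library with oligodendrocyte markers and 2 control barcodes with erythrocyte markers, and their part in the Ski levels there was not tested.

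**Figure D2:**
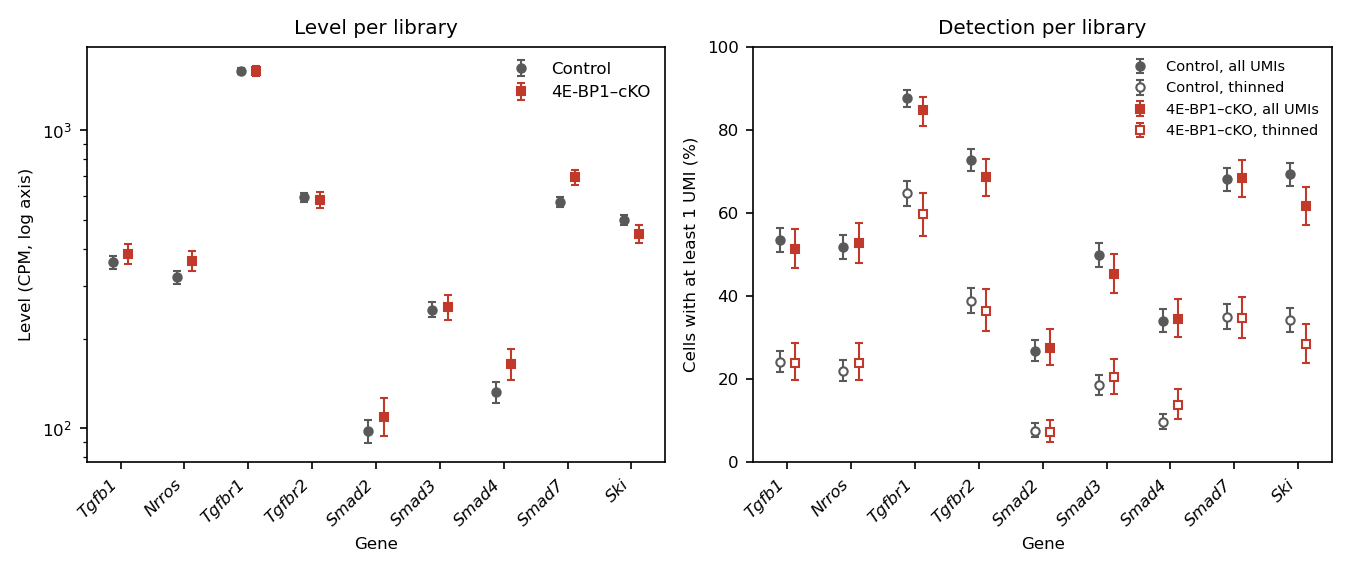
Left, level of each gene per library in CPM on a log axis, with exact 95% Poisson intervals. Right, share of cells with at least 1 UMI in percent, on all UMIs (filled symbols) and after thinning to 872 UMIs (open symbols). Cells with fewer than 872 UMIs are left out of the open symbols. Bars are exact 95% binomial intervals, for control (grey circles) and 4E-BP1–cKO (red squares). The libraries lie close together for Tgfbr1 (1577 and 1580 CPM), and thinning lowers detection of every gene, for Tgfbr1 from 87.7% to 64.7% in control cells.

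None of the 9 genes was past 1.5-fold between the libraries (0 of 9), where 4.4% of the 4887 genes with at least 200 UMIs were past it in either direction. The median log2 ratio of the 9 genes was 0.09, and that of all genes with at least 200 UMIs was -0.03. The intervals excluded 1 for Nrros, Smad4, Smad7 and Ski, and the highest upper bound among the 9 was 1.43, for Smad4. The share of all genes whose interval excluded 1 was not counted. Without the 13 and 3 barcodes with other cell type markers the count past 1.5-fold was again 0 of 9.

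**Figure D3:**
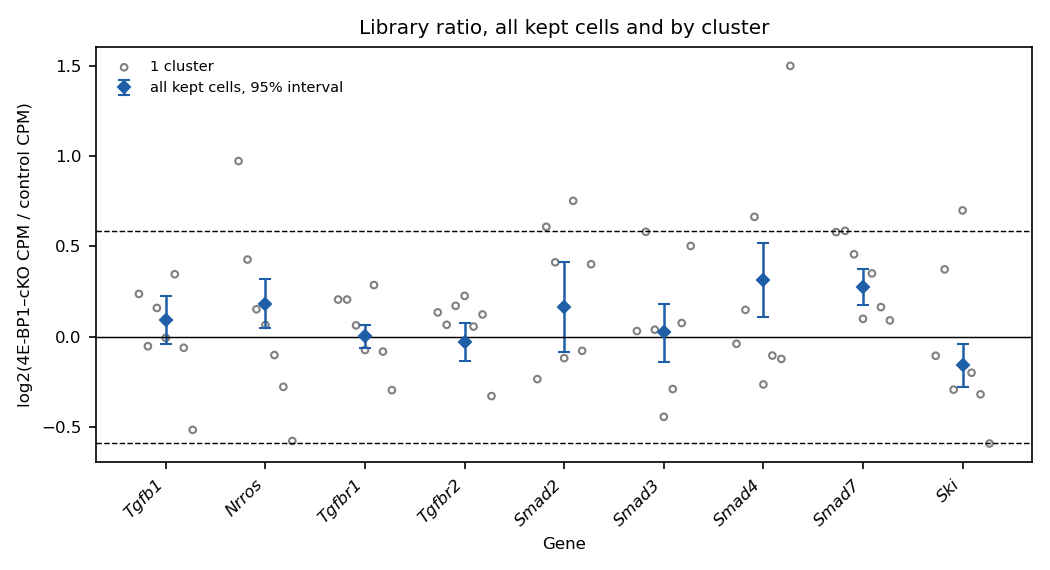
Log2 ratio of the 4E-BP1–cKO to the control level (vertical axis) for each gene, over all kept cells (blue diamonds, bars for exact 95% intervals) and in each of clusters 1 to 7 from left to right (open circles). Dashed lines mark 1.5-fold. All 9 diamonds lie between the dashed lines, and the 7 circles of Smad7 lie above 0, while its ratio in thinned cells was 0.00.

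The low-RP clusters were compared with the other clusters within each library. For 7 of the 9 genes, the exceptions being Tgfb1 and Smad2, the interval of the ratio lay above 1 in both libraries when UMIs were summed. The share of all genes with such intervals was not counted, so that this count describes the 9 genes only. When cells were thinned, 4 of the log2 ratios of these 7 genes came close to 0. Smad4 went from 0.35 to -0.018 in control and from 0.54 to 0.09 in 4E-BP1–cKO cells, Tgfbr2 from 0.41 to 0.016 in 4E-BP1–cKO cells and Smad7 from 0.27 to 0.07 in control cells. Tgfb1 had log2 ratios of 0.02 in control and -0.01 in 4E-BP1–cKO cells, and Smad2 had 0.29 and 0.03, the last with an interval that included 0. The median log2 ratio over the 9 genes was 0.29 in control and 0.45 in 4E-BP1–cKO cells, beside medians of 0.19 and 0.18 over all genes with at least 200 UMIs, a minimum that all 9 passed. By the rule of 1.5-fold in both libraries 0 of 9 were called, where 28.9% of genes with at least 200 UMIs were. Ski came closest, at 634 CPM in the low-RP and 427 CPM in the other clusters of the control library, and at 611 and 383 CPM in the 4E-BP1–cKO library. Its ratios were 1.49 (1.37 to 1.61) and 1.59 (1.38 to 1.85), and under 6 of 14 alternative settings it passed 1.5-fold in both libraries. Smad3 was at 294 and 226 CPM in control cells, and at 391 and 199 CPM in 4E-BP1–cKO cells, a ratio of 1.96 (1.62 to 2.38). Nrros showed a like pattern, with a ratio of 1.14 (1.03 to 1.27) in control and 1.71 (1.46 to 2.01) in 4E-BP1–cKO cells. For both genes the interval of the 4E-BP1–cKO library lay above that of the control. The same held for Tgfbr1, with intervals of 1.139 to 1.249 in control and 1.258 to 1.474 in 4E-BP1–cKO cells. Of the pathway genes described below, Furin also had this, while for Junb the 4E-BP1–cKO interval lay below that of the control. The share of all genes with such separate intervals was not counted. Whether the libraries differ in the ratio of low-RP to other clusters could not be tested with 1 library each. When ribosomal protein and mitochondrial genes were left out of the totals, every log2 ratio shifted by -0.09 in control and by -0.10 in 4E-BP1–cKO cells, and the 4E-BP1–cKO value of Smad2 became -0.07 and the control value of Tgfb1 became -0.07. Depth, ribosomal protein share and the share of the nuclear RNA Malat1 differ between these clusters, and their part in the ratios was not tested. Malat1 made up 4.55% to 5.08% of UMIs in the low-RP and 1.64% to 3.24% in the other clusters of the control library. In the 4E-BP1–cKO library its share was 3.86% to 6.09% and 2.21% to 3.81%.

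**Figure D4:**
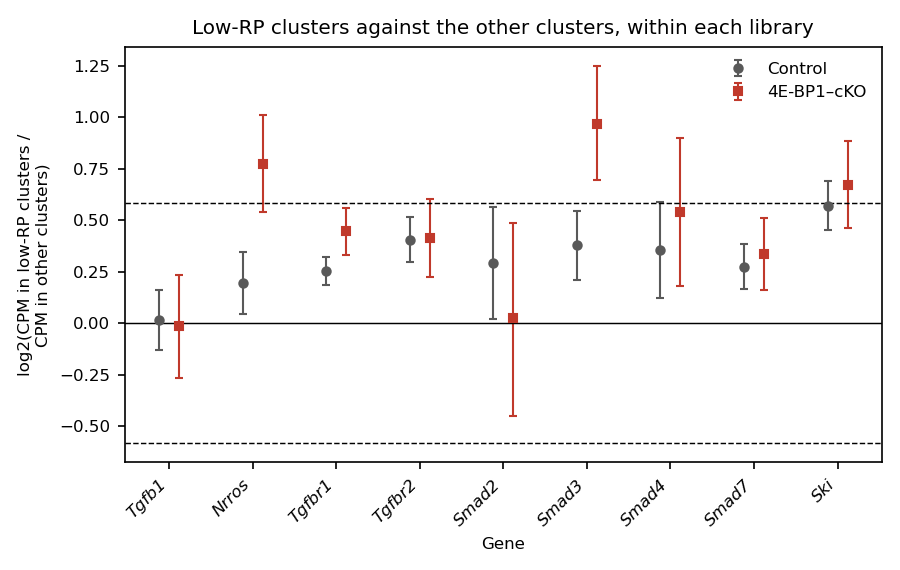
Log2 ratio of the level in the low-RP clusters (1, 2, 7 and 8) to that in the other clusters (3, 4, 5, 6 and 9) for each gene (vertical axis), in the control library (grey circles) and the 4E-BP1–cKO library (red squares), with exact 95% intervals. Dashed lines mark 1.5-fold. Ski lies at 0.57 and 0.67 and Tgfb1 at 0.02 and -0.01, while Smad4 in control cells (0.35) was -0.018 when cells were thinned.

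Seen cluster by cluster, 5 of the 9 genes (Nrros, Tgfbr2, Smad3, Smad7 and Ski) had their lowest level of clusters 1 to 7 in cluster 6 in both libraries, where 11.3% of the 4887 genes with at least 200 UMIs did. Cluster 6 held the deepest cells, at a median of 8439 UMIs, with 9.72% of UMIs from ribosomal protein genes, and Cxcl2, Mt1 and Lpl were among its leading genes. The lowest cluster was the same in both libraries for 7 of the 9 genes, and for 36.4% of all genes with at least 200 UMIs. The highest cluster was the same for 4 of the 9, Tgfb1, Tgfbr2, Smad4 and Smad7, and for 39.5% of those genes. When the cells were clustered without the 9 genes, the lowest level of those 5 genes was again in the cluster that holds most cells of cluster 6.

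The genes with the most similar pattern were found by the Pearson correlation of log2(CPM + 10) over the 16 points that had at least 20 cells, from both libraries. For Tgfbr1 these were Myo1d (0.88), Ptbp2 (0.86) and Slf2 (0.86), and for Tgfbr2 they were Setd3 (0.89), Pla2g4a (0.88) and Rnf169 (0.87). For Tgfb1 they were Atp1b3 (0.84), Nfkb2 (0.82) and Nab1 (0.82), and for Nrros they were Ddx50 (0.90), Frrs1 (0.88) and Ripk2 (0.86). Among the SMAD genes, Smad2 was most like Tmem170b (0.91), Smad3 like Ncoa2 (0.92), Smad4 like Hivep1 (0.86) and Smad7 like Impact (0.88). Ski was most like Plcg2 (0.93), Ppm1h (0.93) and Sipa1l2 (0.93). These names are the best of 4887 genes, and the points share libraries, depth and clusters, so that the correlations are descriptions.

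Other genes of the pathway were taken from a list of 41. Of these, 30 had at least 20 UMIs, and 4 were past 1.5-fold between the libraries, where 15.6% of all genes with at least 20 UMIs were. Bambi, which encodes a pseudoreceptor that dampens TGF-β signalling, was at 21.0 CPM in control and 40.4 CPM in 4E-BP1–cKO cells, a ratio of 1.92 (1.39 to 2.63), and Tgif2, a co-repressor of SMADs, was at 26.6 and 43.8 CPM. Acvr1, a type I receptor of the BMP branch, was the lower, at 127 and 84.2 CPM, with a ratio of 0.664 (0.550 to 0.797). The fourth, Tgfb2, had 29 UMIs in all and an interval that included 1. As a mean of the log2 ratios over clusters 1 to 7, Bambi was at 0.45 and Acvr1 at -0.42, both inside 1.5-fold. By the same mean Tgif2 was at 0.65, still past it, and Tgfb2 was at 0.06. The other ligand genes and latent TGF-β binding proteins were near absent, with 3 UMIs of Tgfb3 and between 4 and 10 UMIs each of Ltbp1, Ltbp2, Ltbp3 and Ltbp4. Lrrc32, which encodes the tether that other cell types use in place of the Nrros product, had 2 UMIs.

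Of the 21 genes of this list with at least 200 UMIs, Furin, Itgav and Skil had their highest level of clusters 1 to 7 in cluster 2 in both libraries, as Tgfb1 had. Furin, the protease that cuts the TGF-β1 precursor, was at 190 and 296 CPM there. Itgav, the integrin αv chain that takes part in release of the ligand, was at 853 and 950 CPM. Skil, a relative of Ski, was at 1341 and 1516 CPM in the same cluster. Of all genes with at least 200 UMIs, 8.45% had their highest level in cluster 2 in both libraries. Furin, Itgav and Skil are a few of 21 genes and were named after their values were seen, so that no excess over this share is claimed. The integrin β chains that pair with αv on TGF-β-activating cells were near absent, with 7 UMIs of Itgb8 and 11 of Itgb6. Acvr2a, Zfyve9 and Nedd4l of this list were past 1.5-fold higher in the low-RP clusters of both libraries, and Strap was past it lower. Of all genes with at least 20 UMIs, 12.2% were past it higher and 14.9% lower. In 4E-BP1–cKO cells Strap rested on 11 and 42 UMIs, and the interval of its ratio (0.304 to 1.29) included 1.

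Many of the 14 TGF-β-dependent microglial genes were lower in the low-RP clusters, but not all of them were. The part of depth, ribosomal protein share and Malat1 share in these levels was not tested. Both receptor genes were higher in the low-RP clusters in summed UMIs, but not in each low-RP cluster. Tgfbr1 was lowest of clusters 1 to 7 in cluster 7, a low-RP cluster, in both libraries. The Tgfbr2 log2 ratio was 0.016 in thinned 4E-BP1–cKO cells. All 14 had at least 20 UMIs, and 8 were past 1.5-fold lower in the low-RP clusters of both libraries, where 14.9% of genes with at least 20 UMIs were. P2ry12, a purinergic receptor of resting microglia, was at 669 CPM in the low-RP and 1304 CPM in the other clusters of control cells, and at 597 and 1117 CPM in 4E-BP1–cKO cells. C1qa, a complement subunit, was at 1104 and 3519 CPM in control cells and at 1281 and 3636 CPM in 4E-BP1–cKO cells. Gpr34, Fcrls, Olfml3, Siglech and P2ry13 were also among them. Mertk, a receptor kinase for the uptake of dying cells, was instead higher in the low-RP clusters, at ratios of 1.48 (1.41 to 1.57) and 1.51 (1.36 to 1.68). Pros1, a ligand of Mertk, had ratios of 1.39 in control and 1.06 in 4E-BP1–cKO cells, and the intervals of Sall1 and Gas6 included 1 in both libraries. Cluster 2, with the most Tgfb1, had the lowest P2ry12 level, at 352 and 414 CPM, and cluster 5, with much Tgfbr1, had the highest, at 1911 and 1837 CPM. Between the libraries only Tmem119 of this list was past 1.5-fold. Cre is driven from the promoter of this gene in the 4E-BP1–cKO mice, and the control is given as Eif4ebp1 fl/fl, without Cre. For Tmem119 the Cre allele and the loss of 4E-BP1 therefore cannot be told apart. Of the 14 genes known to respond to TGF-β in many cells, 12 had at least 20 UMIs. Of these, 4 (Id1, Id2, Cdkn1a and Gadd45b) were past 1.5-fold lower in the low-RP clusters of both libraries, where 14.9% of all such genes were. In 4E-BP1–cKO cells Id1 rested on 2 and 11 UMIs, and the interval of its ratio (0.049 to 2.08) included 1. Gadd45b was at 716 CPM in the 4E-BP1–cKO and 444 CPM in the control library, a log2 ratio of 0.69, but the mean of the log2 ratios over clusters 1 to 7 was 0.19, and in 2 of the 7 the 4E-BP1–cKO level was the lower.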

How the data were processed

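The authors aligned the reads to mm10 with Cell Ranger, whose version the deposited matrices give as 8.0.1, and deposited raw UMI counts of genes by barcodes called as cells. No further filter or normalization had been applied. Sums over the kept cells of a library or cluster were divided by the total to give CPM. Log2 ratios used a pseudocount of 1 CPM. Ratios carry exact conditional Poisson intervals, levels exact Poisson intervals and shares of cells exact Clopper-Pearson intervals, at 95%, which cover counting error only. Precision follows the depth, 4803562 UMIs for control and 1734332 for 4E-BP1–cKO cells. No p-value is given, because cells are not replicates and there was 1 library per genotype.

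Cells were clustered with SCTransform (0.4.2), RPCA integration, 20 principal components and a resolution of 1.4 in Seurat 5.3.0 under R 4.3.3, as in the study's methods. Other steps used Python 3.11.15, numpy 2.4.6, scipy 1.17.1 and pandas 2.3.3. Ribosomal protein share was summed over 83 genes. A cluster was called low-RP under a median of 3%, and 110 cells lay within 0.5 points of this limit and 82 on the other side of it than their cluster. Doublets were kept, and Scrublet (scanpy 1.11.5) called 4 control and 11 4E-BP1–cKO cells, which were removed as an alternative. The study's own doublet caller was not run. For thinning, each cell was drawn down to 872 UMIs, and 89 control and 70 4E-BP1–cKO cells were too shallow for this and were left out.

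The 9 genes and the lists were chosen with earlier results of these data known. The text names these genes, genes of the 3 pathway lists that were past 1.5-fold or whose detection is given, and the 3 genes most like each member (only the first for each SMAD gene). Furin, Itgav, Skil, Mertk, Pros1, Sall1, Gas6 and the leading genes of clusters were named after their values were seen. Steps were tested on simulated counts. Alternatives changed 1 choice each: mitochondrial limit (10%), detected genes (at least 500), doublet removal, thinning, CPM on totals that leave out ribosomal and mitochondrial transcripts, pseudocount (10 CPM), a minimum of 100 UMIs, TMM factors (edgeR 4.0.16), means over clusters, resolutions of 0.8 and 2.0, clustering without the 9 genes, no integration and a split of single cells at 3%. A pair of alternatives was added after seeing the data, namely without barcodes with at least 3 markers of another cell type, and without the shallow cluster. Some genes are not reported here.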

Additional observations from a re-analysis of the deposited data

How the results depend on the processing

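No member was past 1.5-fold between the libraries under any of the 10 alternatives, and the median log2 ratio stayed between 0.01 and 0.15. Smad7 went from 0.28 to 0.00 when cells were thinned, Smad2 from 0.16 to -0.09 and Smad3 from 0.02 to 0.28, while Smad4 stayed between 0.25 and 0.52 and Ski between -0.16 and -0.06 over all 10. Between the low-RP and the other clusters the count of members past 1.5-fold in both libraries rose from 0 to 1, which was Ski each time, with a minimum of 500 detected genes, with Scrublet doublets removed, with thinned cells, when clustered without the members, when cells were split at a 3% ribosomal protein share, and without the shallow cluster. Ski in the control library lay just under the limit, at a ratio of 1.49. The median log2 ratio of the members between these cluster groups stayed between 0.21 and 0.44 in control over 14 alternatives. In 4E-BP1–cKO cells it stayed between 0.27 and 0.55, with the lowest value, 0.27, when cells were thinned. Smad4 in control cells turned from 0.35 to -0.018 when cells were thinned, and Tgfbr2 (0.41 to 0.016) and Smad4 (0.54 to 0.09) in 4E-BP1–cKO cells and Smad7 in control cells (0.27 to 0.07) came close to 0. Thinning leaves fewer UMIs, leaves out the shallowest cells and gives each remaining cell the same weight, and the cause of these shifts was not tested. Of the values for single genes, 324 kept their value within the counting interval, 17 moved and 1 reversed. TMM factors raised every log2 ratio between the libraries by 0.05. No paired analysis was possible because there was 1 library per genotype and the labels give no replicate numbers, and for the same reason no replicate could be left out. Depth limits Smad2 and Smad4 most, at 190 and 285 UMIs in the 4E-BP1–cKO library, where clusters hold as few as 7 and 11 UMIs among clusters 1 to 7.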

Other observations

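A cell rarely showed the whole pathway at this depth. The median cell had UMIs of 5 of the 9 genes in each library, and all 9 were found in 3.84% of control cells (2.80 to 5.12) and 5.39% of 4E-BP1–cKO cells (3.49 to 7.92). No member was detected in 1.13% and 1.80%. The ligand gene and both receptor genes were found together in 40.8% of control and 38.7% of 4E-BP1–cKO cells, and after thinning to 872 UMIs in 6.24% and 4.00%, so that these shares depend on depth. Single cells reached 72 and 82 UMIs of Tgfbr1, and 30 and 39 UMIs of Nrros. The 10% of cells with most UMIs of a gene held between 37.3% (Tgfbr2) and 58.8% (Smad2) of them in the control library.

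Junb, an AP-1 gene that TGF-β and many other stimuli induce, was at 2701 CPM in control and 3692 CPM in 4E-BP1–cKO cells. This is a log2 ratio of 0.45, but the mean of the log2 ratios over clusters 1 to 7 was 0.21. Junb was highest in cluster 6 and lowest in cluster 5 in both libraries. Cluster 6 made up 8.54% of control and 12.1% of 4E-BP1–cKO cells, and the part of this in the library ratio was not tested.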
